A study of Mus musculus with 9 samples.

Results

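The 39 genes described here encode enzymes of glycolysis, the sugar and lactate transporters and glycogen enzymes beside it, and further genes that cells switch on when oxygen is short. They are a fixed list of names that was chosen with earlier results of these data known. They stand among 27998 genes measured by single-cell RNA sequencing in 1 library. The library was made from ascites cells of wild-type B6 hosts in the ID8-Def29/Vegf model, where ascites is fluid that collects around the abdominal organs. ID8-Def29/Vegf cells descend from mouse ovarian surface epithelium and were altered to make VEGF and a defensin. The labels name no treatment, age or number of animals for this library. The series also holds 8 bulk samples of the cultured line, 4 given vehicle and 4 given the iron chelator deferiprone for 12 h, and these are not analysed here.

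Glycolysis splits glucose to pyruvate and yields a little ATP without oxygen, and lactate dehydrogenase then turns pyruvate into lactate, which leaves the cell through monocarboxylate transporters. Hypoxia-inducible factors (HIFs) are transcription factors whose alpha subunits are marked for destruction by prolyl hydroxylases, enzymes that need both oxygen and iron. When oxygen or iron is lacking the alpha subunits persist, bind short DNA motifs with the core ACGTG or GCGTG, and raise transcription of glycolytic enzymes and of genes such as Bnip3 and Ankrd37. Activated macrophages and many carcinomas are known for high rates of glycolysis.

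The HIF core gives a view of these genes that does not depend on their expression. RefSeq promoter sequences (assembly GRCm38.p6) were at hand for 34 of the 39 genes, all but Ndrg1, Slc2a3, Bhlhe40, Bnip3l and Angptl4. In the 250 bases before the RefSeq transcription start furthest 5′, 13 of the 34 held ACGTG on either strand, or 38.2%, against 16.5% of 27025 genes. The core GCGTG was found in 16 of the 34, or 47.1%, against 28.3% of all genes, and 23 of the 34 held at least 1 of the cores, or 67.6% against 38.6%. A match is only a run of letters and was not tested for binding. All genes were not matched to the 34 for base composition, and the list holds known HIF targets, so the shares are descriptive. For some genes, Ldha and Ankrd37 among them, GENCODE places a start further 5′ than the window used. The 5 stretches below are shown because the genes behind them differed in how they were divided between tumour-like cells and macrophages: Ddit4 was higher in tumour-like cells, Ankrd37 and Slc16a3 were higher in macrophages, and Bnip3 and Ldha lay closer to parity. Each runs 5′ to 3′ on the gene's strand over the bases before the start that no GENCODE exon covers, and capitals mark either core on either strand. A palindromic site holds a core on both strands, so matches can overlap.
Ddit4, chr10:59951835-59952020, minus strand: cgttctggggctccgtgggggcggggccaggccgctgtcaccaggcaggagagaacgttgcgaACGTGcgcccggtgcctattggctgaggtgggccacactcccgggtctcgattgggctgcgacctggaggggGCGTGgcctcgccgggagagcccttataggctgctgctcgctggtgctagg
Ankrd37, chr8:45999868-46000100, minus strand: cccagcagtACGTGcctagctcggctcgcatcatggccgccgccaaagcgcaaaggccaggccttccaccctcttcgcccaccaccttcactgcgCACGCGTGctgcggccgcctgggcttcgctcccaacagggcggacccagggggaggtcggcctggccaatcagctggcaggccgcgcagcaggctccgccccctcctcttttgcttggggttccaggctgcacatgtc
Slc16a3, chr11:120948817-120949052, plus strand: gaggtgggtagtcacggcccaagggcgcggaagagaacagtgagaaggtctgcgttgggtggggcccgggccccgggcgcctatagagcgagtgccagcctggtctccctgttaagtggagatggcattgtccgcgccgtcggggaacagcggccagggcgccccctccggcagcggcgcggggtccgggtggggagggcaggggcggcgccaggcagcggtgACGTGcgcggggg
Bnip3, chr7:138909520-138909756, minus strand: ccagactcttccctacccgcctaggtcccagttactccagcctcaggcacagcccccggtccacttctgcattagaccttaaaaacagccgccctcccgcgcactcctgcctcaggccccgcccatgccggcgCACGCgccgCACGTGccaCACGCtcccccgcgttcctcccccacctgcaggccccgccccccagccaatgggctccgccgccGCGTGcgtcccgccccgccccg
Ldha, chr7:46845554-46845803, plus strand: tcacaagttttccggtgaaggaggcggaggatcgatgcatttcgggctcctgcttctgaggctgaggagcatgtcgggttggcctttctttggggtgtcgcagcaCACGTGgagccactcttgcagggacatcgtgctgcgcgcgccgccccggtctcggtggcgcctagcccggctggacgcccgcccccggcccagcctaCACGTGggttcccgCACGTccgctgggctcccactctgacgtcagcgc
ACGTG was found at least once in the 250 bases of each of these 5 genes. Hilpda, Gpi1, Pkm and Gbe1, which were higher in macrophages, and Hk1 and Mxi1, which were higher in tumour-like cells, held neither core in their 250 bases. Those letters are absent from this window only.

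Of 737280 barcodes, 6442 were kept as cells, with at least 500 unique molecular identifiers (UMIs, tags that count RNA molecules), at least 200 genes and at most 15% mitochondrial UMIs. Tumour-like cells were those with at least 3 UMIs of the epithelial and mesothelial genes Krt8, Krt18, Krt19, Wt1 and Upk3b and at most 1 UMI of the complement genes C1qa, C1qb and C1qc. Macrophages were defined the other way round. The rule found 3660 tumour-like cells (56.8% of those kept), 1076 macrophages (16.7%) and 1706 cells in neither class. Markers outside the rule followed the labels: Upk1b stood at 41.1 CPM (UMIs scaled to a common total per class) in tumour-like cells and 3.15 in macrophages, and the macrophage receptor Csf1r at 1.40 and 369 CPM. Epcam was at 1.20 CPM in tumour-like cells, and the host's mesothelial cells share the rule's genes, so tumour and mesothelial cells cannot be told apart by it. The 2 classes differed in depth, with medians of 5007 and 1639.5 UMIs per cell, and summed to 19994488 and 1905866 UMIs. RNA from other cells was present in both, at 5.24% of tumour-like and 14.3% of macrophage UMIs when barcodes with 1 to 50 UMIs served as its profile. Haemoglobin genes summed to 1667 CPM in tumour-like cells and 11641 CPM in macrophages, and 6 dendritic cell markers summed to 646 and 8518 CPM. In macrophages the latter sum came almost wholly from Cd74 (5218 CPM), H2-Ab1 (1790 CPM) and H2-Eb1 (1508 CPM). The other markers of that list, Flt3, Cd209a and Xcr1, stood at 1.05, 1.57 and 0 CPM there. The part of haemoglobin and of these markers in the results was not tested.

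With 1 library there is no replicate, and no test or p-value is given. A level is the CPM of the UMIs summed over all cells of a class, and its 95% interval is exact Poisson. Ratios have an exact conditional binomial 95% interval. Intervals cover counting error only. Because 10x reads come from transcript ends, levels are compared between cells for 1 gene, not between genes. Of the 39 genes, 34 had at least 50 UMIs in both classes together. All 34 reached 50 in tumour-like cells alone and 19 did so in macrophages alone, so the filter let genes in by their tumour-like UMIs. The 7 of the 34 that were at least 2-fold higher in tumour-like cells each had 2 to 28 UMIs in macrophages and passed only through the class where they were high. The other 5 were Eno2 (9 UMIs in tumour-like cells and 0 in macrophages), Adm (5 and 0), Car12 (18 and 0), Ak4 (5 and 2) and Pfkfb4 (16 and 27).

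The genes fell on both sides, and their median ratio lay nearer the macrophage side than that of all genes. At least 2-fold higher in tumour-like cells were 7 of the 34, or 20.6%, against 35.9% of the 10385 genes with 50 UMIs. At least 2-fold higher in macrophages were also 7, or 20.6%, against 11.8% of those genes. The median log2 ratio of tumour-like to macrophage CPM was -0.17 over the 34 and 0.57 over the 10385 genes. The latter moves with the filter: it was 0.36 over the 6278 genes with a mean class CPM of at least 10, where 28.7% and 16.1% of genes were at least 2-fold higher in tumour-like cells and macrophages, and 0.25 with a minimum of 1 UMI. Intervals lay wholly above 1 for 8 of the 34 (45.5% of all genes) and wholly below 1 for 15 (17.9% of all genes), and 11 included 1. Whether an interval excludes 1 also depends on a gene's UMIs, so these shares are not compared. Set relative to the all-gene median, the counts at least 2-fold higher were 5 in tumour-like cells and 13 in macrophages. On that scale the shares over the 10385 genes were 23.2% and 19.9%. All later counts relative to the all-gene median are to be set beside these 2 shares. The 7 genes on the tumour-like side were Slc2a3, Hk1, Pfkm, Ndrg1, Ddit4, Angptl4 and Mxi1, and the 7 on the macrophage side were Slc16a3, Gpi1, Pkm, Pfkfb3, Gbe1, Ankrd37 and Hilpda.

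**Figure D1:**
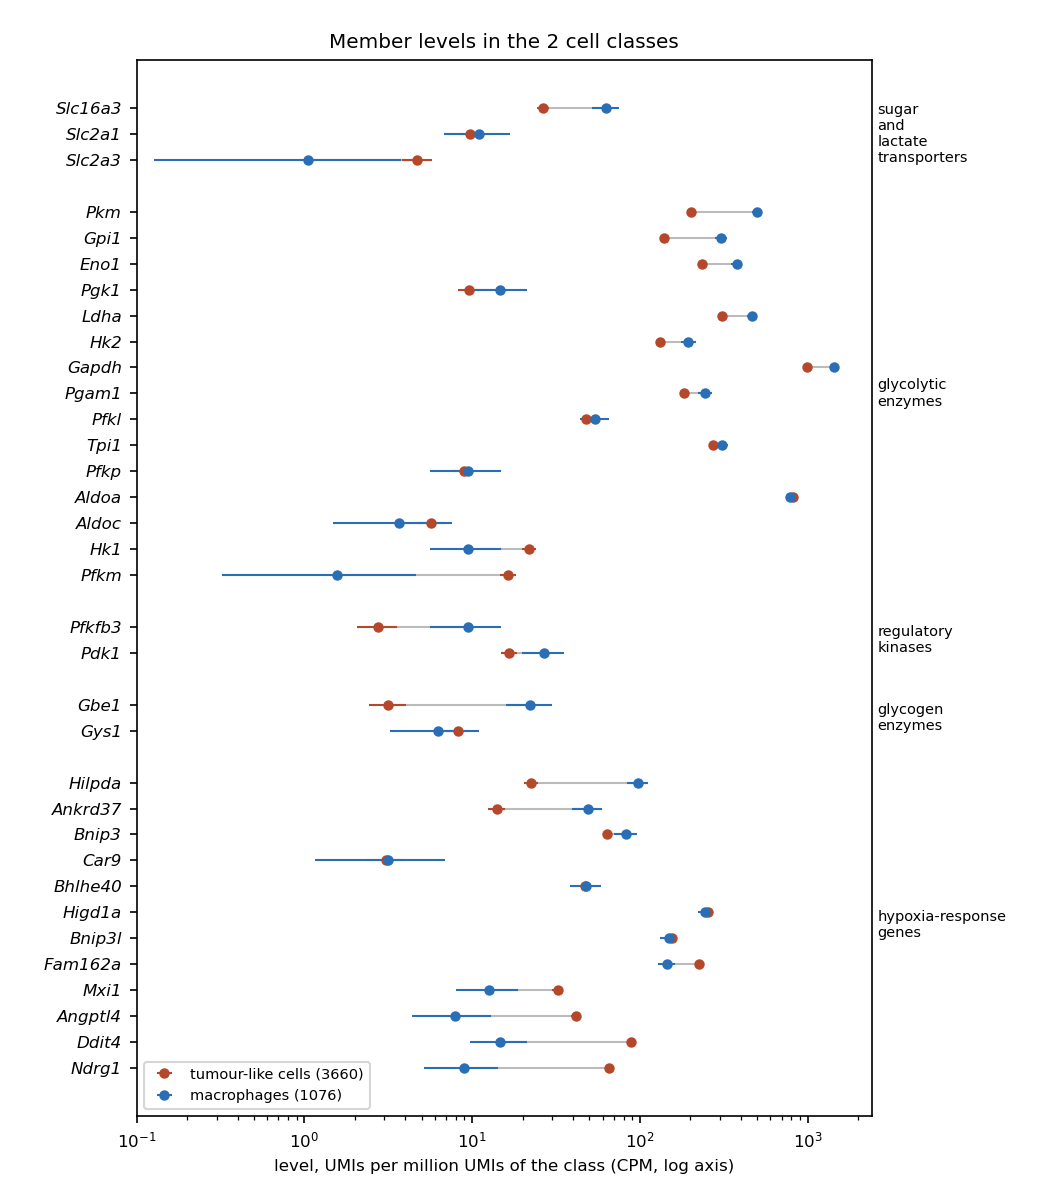
Level of each of the 34 genes in tumour-like cells (red) and macrophages (blue), in CPM on a log axis; horizontal bars are 95% counting intervals, and genes are grouped by role. The glycolytic enzymes mostly sit further right in macrophages, while Ndrg1, Ddit4, Angptl4 and Mxi1 sit further right in tumour-like cells.

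**Figure D2:**
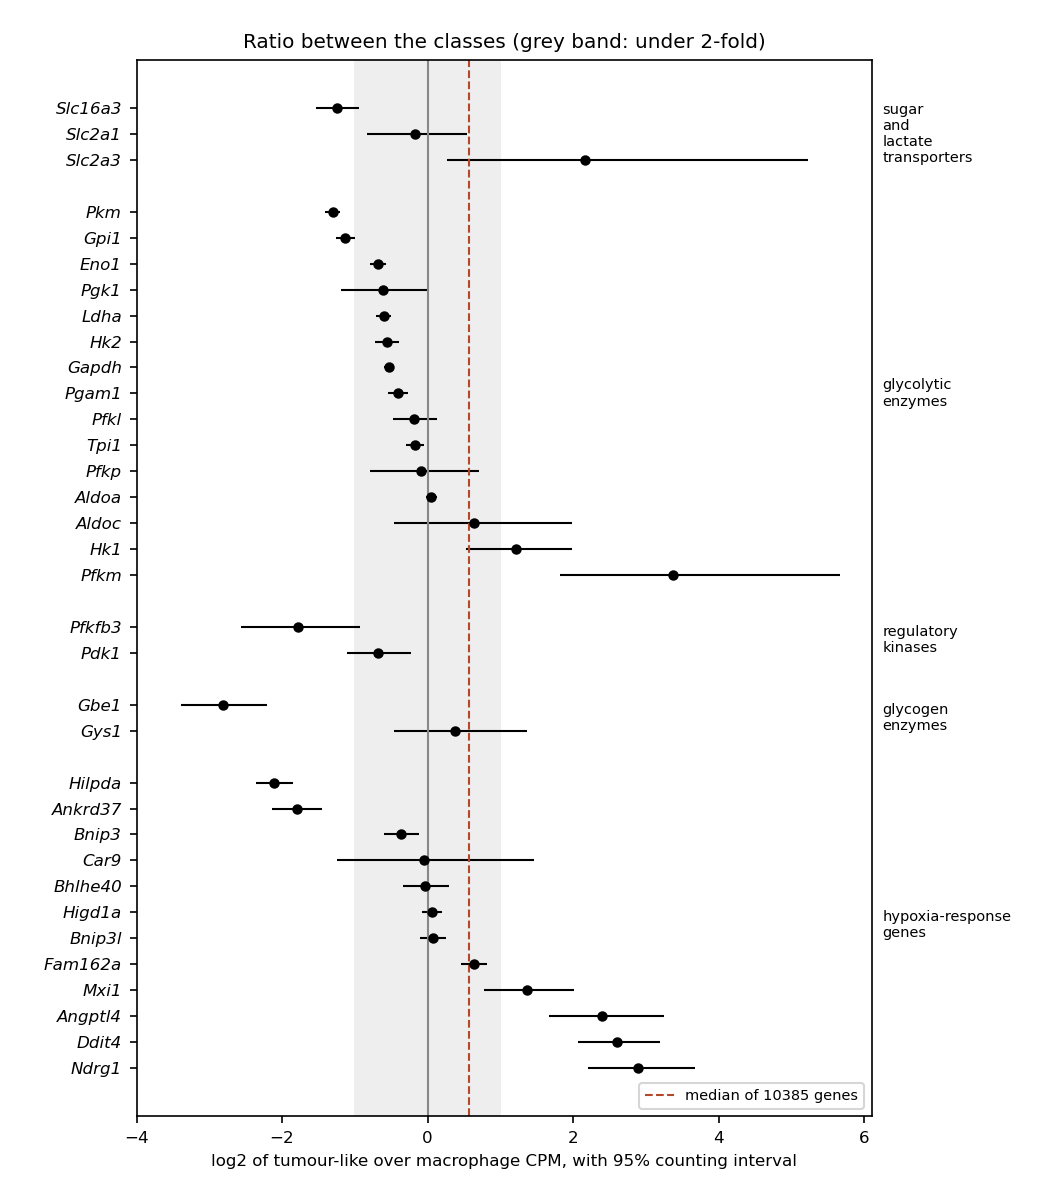
Log2 ratio of tumour-like to macrophage CPM for the same 34 genes with 95% counting intervals; the grey band marks ratios under 2-fold and the dashed line the median of all 10385 genes, at 0.57. Hypoxia-response genes spread from Hilpda and Ankrd37 on the macrophage side to Ndrg1, Ddit4 and Angptl4 on the tumour-like side.

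Among the transporters, the lactate exporter Slc16a3 (monocarboxylate transporter MCT4) stood at 26.4 CPM in tumour-like cells (95% interval 24.2 to 28.8) and at 62.4 CPM in macrophages (51.7 to 74.7). It was 2.36-fold higher in macrophages (1.92 to 2.89), or 1.92-fold in cells thinned to 1000 UMIs. For ratios in thinned cells the class rule was applied again after thinning. That left 1236 tumour-like cells and 957 macrophages, so such ratios do not cover the same cells. Slc2a1 (GLUT1), the widely expressed glucose importer, stood at 9.75 and 11.0 CPM, a ratio of 0.885 (0.563 to 1.46). Slc2a3 (GLUT3), a glucose importer of high affinity, had 94 UMIs in tumour-like cells and 2 in macrophages. That is 4.70 against 1.05 CPM, a ratio of 4.48 with an interval of 1.21 to 37.5, or 7.04 with free RNA subtracted.

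The enzymes of glycolysis leaned to the macrophages. Summed over all 16 enzymes, including Ldha but not Ldhb, macrophages held 4708 CPM and tumour-like cells 3390 CPM, a tumour-like to macrophage ratio of 0.720. Of 15 enzymes with enough UMIs, 2 were at least 2-fold higher in tumour-like cells, 2 in macrophages and 11 lay between. Over all genes the shares were 35.9% and 11.8%. Relative to the all-gene median the counts were 1 and 7 (23.2% and 19.9% of all genes), and the summed ratio was 0.485. Unscaled, 8 intervals were wholly below 1 and 2 wholly above (17.9% and 45.5% of all genes). These interval counts depend on the UMIs of each gene and are not compared with those shares. Counted per cell the order was the other way, since tumour-like cells gave more UMIs: Gapdh had 5.40 UMIs per tumour-like cell and 2.54 per macrophage.

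Hk1 and Hk2 trap glucose in the cell by phosphorylating it. Hk2, the inducible form, stood at 132 CPM in tumour-like cells (127 to 137) and 194 in macrophages (175 to 215), 1.47-fold higher in macrophages (1.32 to 1.64). Hk1, the common housekeeping form, went the other way, at 21.9 and 9.44 CPM. It was 2.31-fold higher in tumour-like cells (1.45 to 3.94), or 1.99-fold when each cell had equal weight and 1.56-fold relative to the all-gene median. Gpi1, which turns glucose 6-phosphate into fructose 6-phosphate, stood at 139 CPM in tumour-like cells (134 to 144) and 305 in macrophages (281 to 331), 2.19-fold higher in macrophages.

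Phosphofructokinase commits sugar to glycolysis and comes in liver (Pfkl), platelet (Pfkp) and muscle (Pfkm) forms. Pfkl stood at 47.6 and 54.0 CPM in tumour-like cells and macrophages, a ratio of 0.880 (0.718 to 1.09). Pfkp stood at 8.90 and 9.44 CPM, a ratio of 0.943 (0.579 to 1.63). Pfkm had 327 UMIs in tumour-like cells and 3 in macrophages, or 16.4 against 1.57 CPM. The ratio was 10.4 with an interval of 3.52 to 50.6, and it ranged from 3.10 with cells thinned to 1000 UMIs to 83.0 with free RNA subtracted. The macrophage level of 1.57 CPM compares with 1.40 CPM that free RNA would give by the profile of 1 to 50 UMIs. By a profile from barcodes with 100 to 200 UMIs it would give 1.03 CPM.

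Aldolases, Tpi1 and Gapdh split and oxidise the sugar. Aldoa, the main aldolase outside liver, stood at 819 CPM in tumour-like cells (806 to 832) and 790 in macrophages (750 to 831), with a ratio of 1.04 (0.984 to 1.09). Relative to the all-gene median its ratio was 0.699, on the macrophage side. Aldoc, the brain form, had 114 and 7 UMIs and a ratio of 1.55 (0.729 to 3.95), which was 5.81 in thinned cells. Tpi1, which interconverts the triose phosphates, stood at 274 and 309 CPM with a ratio of 0.887 (0.814 to 0.967). Gapdh, the dehydrogenase step, stood at 988 CPM in tumour-like cells (974 to 1002) and 1432 in macrophages (1379 to 1487), 1.45-fold higher in macrophages.

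The ATP-yielding steps and lactate formation showed the same side. Pgk1, which makes the first ATP, had 192 and 28 UMIs and a ratio of 0.654 with an interval of 0.438 to 1.01. Pgam1, a mutase, stood at 184 and 245 CPM, 1.33-fold higher in macrophages (1.20 to 1.46). Eno1, the enolase of most tissues, stood at 235 and 378 CPM, 1.60-fold higher in macrophages (1.48 to 1.74). Pkm, the pyruvate kinase of most tissues outside liver, gave the largest ratio on the macrophage side among the enzymes, at 201 CPM in tumour-like cells (195 to 208) and 496 in macrophages (465 to 528), 2.46-fold higher in macrophages (2.29 to 2.65). Ldha, which makes lactate, stood at 307 and 467 CPM, 1.52-fold higher in macrophages (1.42 to 1.63). Near-identical copies make some of these counts uncertain: the annotation names pseudogenes of Aldoa, Bnip3l, Gapdh, Ldha, Pgam1 and Pgk1, and the copy Eno1b held 136 and 13 UMIs of its own.

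Of the kinases that steer glycolysis, Pfkfb3 makes the activator of phosphofructokinase, fructose 2,6-bisphosphate. It stood at 2.75 CPM in tumour-like cells and 9.44 in macrophages, 3.43-fold higher in macrophages (1.90 to 5.94) on 55 and 18 UMIs, or 2.15-fold in thinned cells. Its relative Pfkfb4 had too few UMIs to be counted, with 16 in tumour-like cells and 27 in macrophages, or 0.800 against 14.2 CPM, and was 17.7-fold higher in macrophages (9.20 to 35.2). Pdk1, which holds pyruvate back from the mitochondrion by inhibiting pyruvate dehydrogenase, stood at 16.7 and 26.8 CPM, 1.61-fold higher in macrophages (1.17 to 2.16).

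Gbe1, which puts branches into glycogen, had 63 UMIs in tumour-like cells and 42 in macrophages, or 3.15 against 22.0 CPM, and was 6.99-fold higher in macrophages (4.62 to 10.5). Gys1, the glycogen synthase outside liver, had 164 and 12 UMIs and a ratio of 1.30 (0.726 to 2.57), or 0.878 relative to the all-gene median.

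The hypoxia-response genes did not move as a group. Of 15 genes, 12 had enough UMIs. Of these, 4 were at least 2-fold higher in tumour-like cells, 2 were at least 2-fold higher in macrophages and 6 lay between. Over all genes the shares were 35.9% and 11.8%. Summed, they held 1016 CPM in tumour-like cells and 863 in macrophages, a ratio of 1.18 that became 0.793 relative to the all-gene median.

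On the tumour-like side, Ndrg1, a stress-response gene induced by hypoxia and by iron chelators, stood at 65.9 CPM (62.4 to 69.5) against 8.92 in macrophages (17 UMIs), a ratio of 7.38 (4.59 to 12.7). Free RNA alone would give 7.47 CPM of Ndrg1 in macrophages by the profile of 1 to 50 UMIs and 4.47 CPM by that of 100 to 200 UMIs. With those levels subtracted the ratio was 39.5 or 13.7, and the measured macrophage level lay close to the free RNA level. Ddit4 (REDD1), a stress-induced inhibitor of mTORC1 signalling, stood at 89.0 CPM (84.9 to 93.3) against 14.7 (9.76 to 21.2), a ratio of 6.06 (4.18 to 9.15). Angptl4, a secreted inhibitor of lipoprotein lipase, stood at 41.6 CPM (38.8 to 44.5) against 7.87 (4.41 to 13.0), a ratio of 5.29 (3.19 to 9.49) that reached 9.88 with free RNA subtracted and 11.2 in thinned cells. Mxi1, an antagonist of Myc, stood at 32.3 and 12.6 CPM, a ratio of 2.57 (1.71 to 4.03), or 1.73 relative to the all-gene median.

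On the macrophage side, Hilpda, a lipid droplet protein that inhibits the lipase ATGL, stood at 97.1 CPM in macrophages (83.6 to 112) and 22.6 in tumour-like cells (20.5 to 24.7). It was 4.30-fold higher in macrophages (3.61 to 5.12). Ankrd37, an ankyrin repeat protein and HIF target, stood at 48.8 CPM in macrophages (39.4 to 59.8) and 14.0 in tumour-like cells (12.4 to 15.7), 3.48-fold higher in macrophages (2.73 to 4.42). Both are usual HIF targets, as Ndrg1, Ddit4 and Angptl4 are.

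The other 6 lay within 2-fold. Bnip3, a mitophagy receptor and HIF target, stood at 64.0 and 82.4 CPM, 1.29-fold higher in macrophages (1.08 to 1.52). Fam162a, a mitochondrial protein, stood at 224 and 145 CPM, a ratio of 1.55 (1.37 to 1.76), or 1.04 relative to the all-gene median. The mitophagy receptor Bnip3l (156 and 149 CPM), the mitochondrial protein Higd1a (255 and 245 CPM), the transcriptional repressor Bhlhe40 (46.8 and 47.7 CPM) and the carbonic anhydrase Car9 (3.05 and 3.15 CPM) had ratios between 0.969 and 1.05, and each interval included 1. Relative to the all-gene median these were 0.707 for Bnip3l, 0.700 for Higd1a, 0.660 for Bhlhe40 and 0.653 for Car9; the counts for Car9 place it on neither side. Car9, often used as a marker of hypoxic tumour, had 61 UMIs in tumour-like cells and 6 in macrophages, and its ratio was 1.55 in thinned cells.

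Within enzyme families the classes held different shares of the isoforms, and such shares do not change with the scaling of a class. Families were compared after the values of single genes had been seen. Ldhb, the lactate dehydrogenase of oxidative tissues, made up 71.1% of Ldha and Ldhb UMIs in tumour-like cells (70.4 to 71.7, exact Clopper-Pearson) and 17.2% in macrophages (185 of 1075 UMIs). The macrophage Ldhb level was 97.1 CPM, where free RNA would give 108 CPM by the profile of 1 to 50 UMIs and 82.5 CPM by that of 100 to 200, so the 17.2% is at the background level and is not read as expression by macrophages. Hk3, a hexokinase of myeloid cells, had 30 of 418 hexokinase UMIs in macrophages, or 7.18% (4.89 to 10.1), and 0 of 3072 in tumour-like cells, with an upper limit of 0.120%. Pfkm made up 22.5% of phosphofructokinase UMIs in tumour-like cells (20.3 to 24.7) and 2.42% in macrophages (0.502 to 6.91).

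Transporters and glycogen phosphorylases were divided too. Slc16a1 (MCT1), which carries lactate in either direction, made up 28.5% of the UMIs of Slc16a1 and Slc16a3 in tumour-like cells (25.2 to 31.9) and 3.25% in macrophages (0.893 to 8.12). The macrophage share rests on 4 UMIs or 2.10 CPM. Free RNA would give 1.40 CPM there by the profile of 1 to 50 UMIs and 0.688 CPM by that of 100 to 200 UMIs. Slc2a6, a transporter found in lysosomes of macrophages, had 3 of 292 UMIs of the 3 glucose transporters in tumour-like cells, or 1.03% (0.212 to 2.97), and 32 of 55 in macrophages, or 58.2% (44.1 to 71.3). Pygb, the brain form of glycogen phosphorylase, made up 97.1% of phosphorylase UMIs in tumour-like cells (96.2 to 97.9), while Pygl, the liver form, made up 69.2% in macrophages (60.1 to 77.3) and 0.472% in tumour-like cells. Macrophage Pygb stood at 19.4 CPM, where free RNA would give 10.3 CPM by the profile of 1 to 50 UMIs and 5.95 CPM by that of 100 to 200 UMIs. Pdk1 made up 31.3% of the pyruvate dehydrogenase kinases in tumour-like cells (28.5 to 34.2) and 63.0% in macrophages (51.5 to 73.4).

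**Figure D3:**
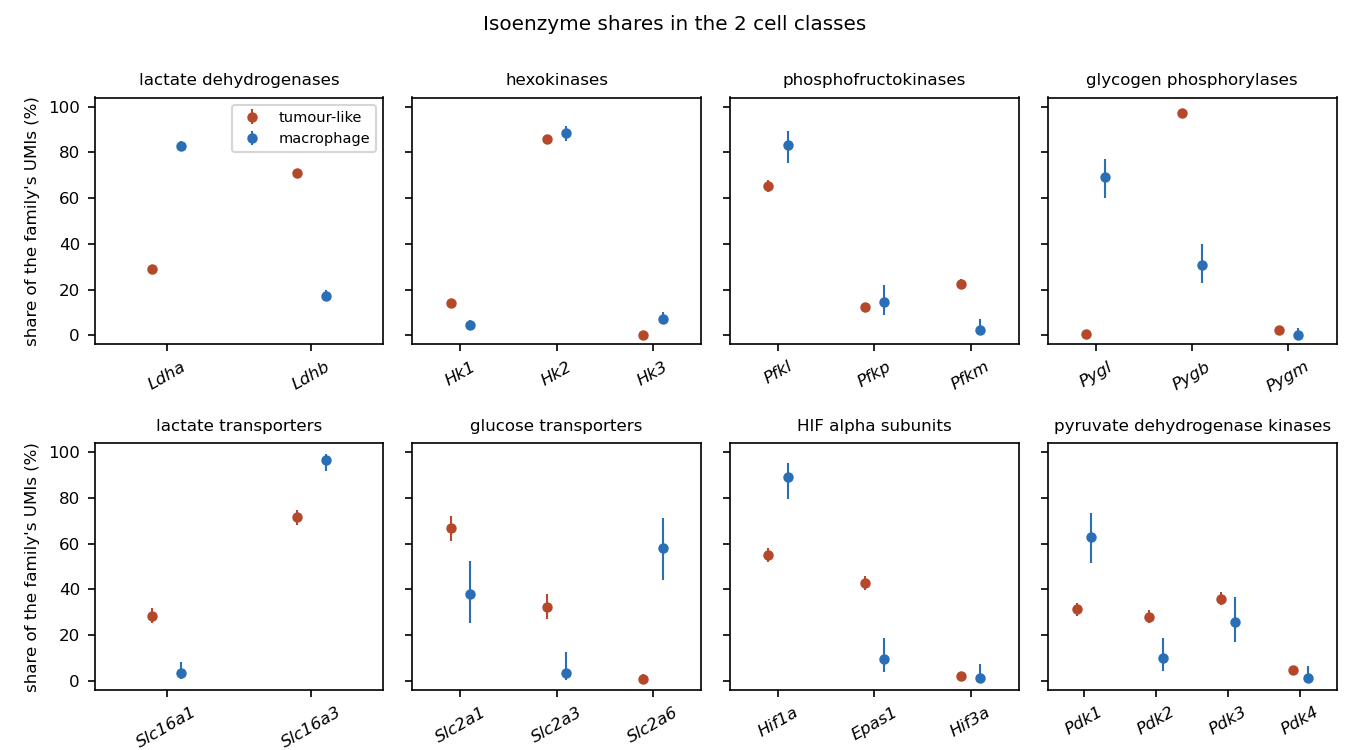
Share of each isoenzyme in the UMIs of its family (percent), in tumour-like cells (red) and macrophages (blue); bars are exact Clopper-Pearson 95% intervals. Ldhb, Pygb, Slc16a1 and Epas1 take larger shares in tumour-like cells, and Ldha, Pygl, Slc2a6 and Hif1a in macrophages.

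The oxygen-sensing machinery upstream of these genes was measured too. Of 13 genes with enough UMIs, 6 were at least 2-fold higher in tumour-like cells and none in macrophages (35.9% and 11.8% of all genes), or 3 and none relative to the all-gene median. Epas1, which encodes HIF-2 alpha, stood at 21.9 and 3.67 CPM, a ratio of 5.96 (2.87 to 14.9). The macrophage value rests on 7 UMIs, with an interval of 1.48 to 7.57 CPM. Free RNA would give 3.74 CPM by the profile of 1 to 50 UMIs and 1.33 CPM by that of 100 to 200 UMIs. The value is thus at the background by the first profile and above it by the second. Hif1an, which hydroxylates and restrains HIF alpha subunits, stood at 13.8 and 2.62 CPM, and Cited2, which competes with HIF for its coactivators, at 162 and 43.5 CPM. Epas1 made up 42.8% of the HIF alpha subunit UMIs in tumour-like cells (39.8 to 45.9) and 9.59% in macrophages (3.94 to 18.8). Its macrophage UMIs are at the background by the first of those profiles only. The prolyl hydroxylases Egln1, Egln2 and Egln3 had overlapping intervals of their shares in the classes, with Egln3, itself a HIF target, at 22.5% (20.6 to 24.6) and 19.3% (11.7 to 29.1).

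Of 17 further HIF targets with enough UMIs, 7 were at least 2-fold higher in tumour-like cells and 4 in macrophages (35.9% and 11.8% of all genes), or 3 and 5 relative to the all-gene median. Loxl2, a collagen cross-linking oxidase, stood at 38.4 and 3.15 CPM, a ratio of 12.2 (5.58 to 33.4), on 6 macrophage UMIs. Free RNA would give macrophages 2.80 CPM by the profile of 1 to 50 UMIs and 1.36 CPM by that of 100 to 200 UMIs. Plod2, a lysyl hydroxylase, had 253 UMIs in tumour-like cells and 1 in macrophages, and Lox, another oxidase, had 98 and 0. Plod1, a second lysyl hydroxylase, was 31.2-fold higher in macrophages (21.9 to 45.2), at 67.2 against 2.15 CPM.

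The routes next to glycolysis were measured too. None of 8 pentose phosphate genes was at least 2-fold higher in tumour-like cells and 2 were in macrophages (35.9% and 11.8% of all genes). Relative to the all-gene median the counts were none and 5. Pgd, which makes NADPH, stood at 40.3 CPM in tumour-like cells and 142 in macrophages, 3.51-fold higher in macrophages (3.05 to 4.04). Of 28 genes of pyruvate oxidation and the citric acid cycle, 7 were at least 2-fold higher in tumour-like cells and none in macrophages (35.9% and 11.8% of all genes), or 4 and 2 relative to the all-gene median. Pdk2, a pyruvate dehydrogenase kinase, was among the 7, with 299 and 8 UMIs, a ratio of 3.56 (1.78 to 8.33), and so was Suclg2, a succinyl-CoA ligase subunit, at 28.7 and 9.44 CPM, a ratio of 3.03 (1.90 to 5.16). By the profile of 1 to 50 UMIs free RNA would give macrophages 2.34 CPM of Pdk2, measured there at 4.20 CPM, and 6.07 CPM of Suclg2. By that of 100 to 200 UMIs the values were 0.638 and 1.81 CPM. Of 12 other glycogen genes, 4 were at least 2-fold higher in tumour-like cells and 2 in macrophages (35.9% and 11.8% of all genes). Relative to the all-gene median the counts were 3 and 2.

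The genes were next compared among tumour-like cells. Clustering without the 39 genes or the further pathway lists gave 6 clusters with at least 100 tumour-like cells, which are called here by their 2 leading genes. Between the highest and the lowest of the 6, 13 of 33 genes were at least 2-fold apart, against 38.7% of 9814 genes, some of which made the clusters, so the share of these genes was that of genes in general. With coarser clustering into 4 clusters the count was 7, with no share over all genes computed there. The median gene differed 1.80-fold between its highest and lowest cluster, and the range ran from 1.14-fold for Gpi1 to 3.98-fold for Aldoc, which rests on 3 UMIs in its lowest cluster. The Top2a/Lockd cluster of 260 cells, led by cell-cycle genes, was the highest for 13 of the 33. The Defb19/Actr3b cluster of 507 cells was the highest for 9. How often each cluster was the highest over all genes was not counted, so 13 and 9 are not read as particular to these genes.

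Those 2 clusters carried different members. In the Defb19/Actr3b cluster Hk2 stood at 212 CPM, against 98.6 to 149 in the other 5, and Aldoa at 1108 CPM, against 605 to 878. Slc16a3 was also at its highest there, at 43.7 CPM, as was Bnip3, at 85.2 CPM. Yet Ndrg1 was at its lowest there, at 33.3 CPM, and so was Ddit4, at 55.9 CPM. In the Top2a/Lockd cluster Ndrg1 stood at 120 CPM, 3.61-fold above the Defb19/Actr3b cluster (2.82 to 4.65), with Higd1a at 389, Ldha at 403 and Gapdh at 1282 CPM. Aldoa (605 CPM) and Hk2 (98.6 CPM) were at their lowest in that cluster. Ddit4 was at its highest in the Abcb1b/Tm4sf5 cluster of 899 cells, at 116 CPM, and Bhlhe40 in the Aox3/Ifitm1 cluster of 376 cells, at 65.7 CPM. Summed over the glycolytic enzymes, the Defb19/Actr3b cluster was the highest, at 4014 CPM (3940 to 4089), of which Aldoa gave 1108. Summed over the hypoxia-response genes the Top2a/Lockd cluster was the highest, at 1186 CPM (1138 to 1237). Higd1a (389 CPM) and Fam162a (301 CPM) gave the larger part of that sum, while Bnip3l, Bhlhe40 and Angptl4 were at their lowest there. Sums follow the most abundant genes, so neither rank describes its genes as a group.

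**Figure D4:**
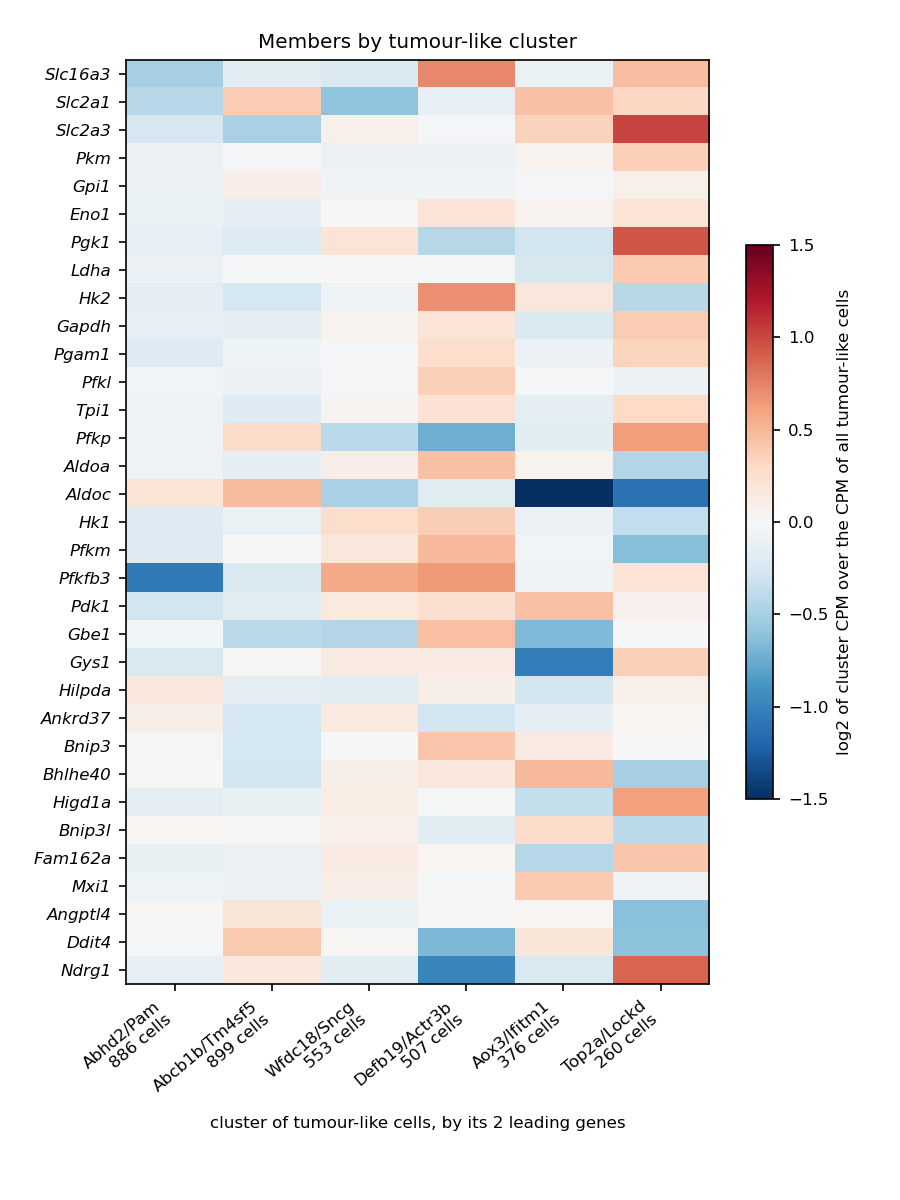
Log2 ratio of each gene's CPM in a cluster of tumour-like cells to its CPM in all tumour-like cells; columns are the 6 clusters of at least 100 cells, rows the 33 genes with UMIs in every cluster (Car9 is left out). Hk2, Slc16a3 and Aldoa are highest in the Defb19/Actr3b column, where Ndrg1 and Ddit4 are lowest, and Ndrg1, Pgk1, Higd1a and Slc2a3 are highest in the Top2a/Lockd column.

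Macrophages formed 2 clusters of at least 100 cells. These, Cxcl2/C1qb with 602 cells and Saa3/Fcna with 442, differed by at most 1.31-fold for the 18 genes with at least 50 UMIs in them. That largest ratio was for Gpi1, at 262 and 343 CPM. Gbe1, below that minimum, stood further apart, at 5.86 CPM (5 UMIs) and 36.3 CPM (36 UMIs). The ranges in the classes rest on unequal numbers of clusters and are not compared. Summed glycolytic enzymes were at 4669 CPM (4525 to 4816) in the Cxcl2/C1qb cluster and 4824 CPM (4688 to 4963) in the Saa3/Fcna cluster.

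Cell cycle genes marked 269 tumour-like cells with at least 2 UMIs of Top2a, Mki67, Birc5, Cdk1, Ccnb1 and Cenpf, which were set against 3059 with none. Of 33 genes, 6 were at least 1.5-fold higher in the cycling cells (9.31% of 9707 genes) and 3 at least 1.5-fold lower (14% of those genes). Intervals lay wholly above 1 for 13 of the 33 (13.8% of all genes) and wholly below 1 for 8 (13.4% of all genes). Because intervals narrow as UMIs rise, these shares depend on abundance too and are not compared. The cycling cells had a median of 7547 UMIs against 4811, and the part of depth in these ratios was not tested. Pgk1 stood at 20.5 CPM in cycling cells and 8.26 in the others, a ratio of 2.49 (1.72 to 3.53), Ndrg1 at 108 and 61.0 CPM, a ratio of 1.77 (1.53 to 2.05), and Higd1a at 375 and 234 CPM, a ratio of 1.60 (1.48 to 1.73). Slc2a3 (2.13, 1.19 to 3.64) and Car9 (2.14, 1.06 to 4.03) were also higher in cycling cells, on 18 and 13 UMIs there.

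Other members lay on either side. The dehydrogenases Gapdh and Ldha had ratios of cycling to other cells of 1.34 (1.28 to 1.39) and 1.35 (1.25 to 1.45), and Pkm had 1.38 (1.26 to 1.51). Lower in cycling cells were Aldoa, with a ratio of 0.717 (0.676 to 0.760), Hk2, with 0.779 (0.675 to 0.895), and Pfkm, with 0.570 (0.347 to 0.889). Among the hypoxia-response genes Angptl4 had a ratio of 0.647 (0.486 to 0.847), Ddit4 0.689 (0.572 to 0.824) and Bnip3l 0.746 (0.653 to 0.850), so Ndrg1 and Ddit4, both higher in tumour-like cells than in macrophages, lay on opposite sides here.

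Glycolytic enzymes and hypoxia-response genes were also summed in single cells, with the classes set on unthinned counts. After each cell was thinned to 1000 UMIs, summed glycolytic enzymes and summed hypoxia-response genes had a Pearson r of 0.109 over 3610 tumour-like cells and 0.181 over 950 macrophages. At 3000 UMIs r was 0.261 over 3134 tumour-like cells. These describe cells of 1 library, and r moves with depth, so its size is not read as the strength of a relation. A tumour-like cell thinned to 1000 UMIs held a median of 3 enzyme UMIs and 1 hypoxia-response UMI, and a macrophage 4 and 1.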

How the data were processed

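Single-cell RNA of 1 ascites library was analysed. The authors deposited raw UMI counts for each gene in each barcode, made with the 10x Genomics platform per the labels, over 737280 barcodes, so cells were selected here. The aligner is not given in the sources used here, nor is the build. The bulk count table has 8 value columns whose names match no sample label, so these 8 columns were not used and the bulk comparison was not made.

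The 39 genes and all gene lists were chosen with earlier results of these data known. Cells were filtered and classed as stated in the text, UMIs were summed per class (19994488 and 1905866) and ratios computed with exact intervals at the 95% level. A ratio against 0 UMIs used a floor of 3 counts. No doublets were removed; Scrublet marked 75 of 6442 cells (1.16%), and leaving those out was an alternative. Clusters came from Leiden clustering (2000 variable genes, 30 components, 15 neighbours, resolution 1) without the listed genes. Each of the 34 genes with at least 50 UMIs is named with its ratio; of each further list at most 4 genes were named, those furthest from a ratio of 1, and genes beyond that, the isoenzyme shares and the barcodes outside the cell filter were chosen after values were seen. The computation of ratios and intervals was checked on simulated independent Poisson counts. Those hold no variation between cells or libraries, so the check does not bear on such variation. Free RNA was estimated from markers foreign to each class, with 14.3% in macrophages by the profile of 1 to 50 UMIs and 9.80% by that of 100 to 200 UMIs. Gene positions and exons are from GENCODE M21 (GRCm38) and promoters from RefSeq. Tools were Python 3.11.15, scanpy 1.11.5, leidenalg 0.10.2, numpy 2.4.6, scipy 1.17.1, pandas 2.3.3 and matplotlib 3.10.9.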

Additional observations from a re-analysis of the deposited data

Results flagged for a closer look

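Bnip3l was singled out because of its level in barcodes that the cell filter left out. Of the barcodes with at least 500 UMIs, 474 held under 200 genes, and 83.4% of their UMIs were from haemoglobin genes. Among their other UMIs Bnip3l, a mitophagy receptor known for clearing mitochondria from maturing red cells, stood at 977 CPM (95% counting interval 773 to 1217), from 79 UMIs in 71 barcodes. On the same scale it stood at 142 CPM in barcodes of 1 to 50 UMIs, 152 CPM in those of 100 to 200 UMIs, 157 CPM in tumour-like cells and 151 CPM in macrophages. Gapdh, at 680 CPM (512 to 885), and Ldha, at 297 CPM (190 to 441), were not above their levels of 874 and 311 CPM in barcodes of 1 to 50 UMIs.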

How the results depend on the processing

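The counts of 7 genes at least 2-fold higher in tumour-like cells and 7 in macrophages were recomputed under 15 other settings. Beside the settings named here, each count stayed within 1.5 times of its reported value. With cells thinned to 1000 UMIs, 22 of the 39 genes had enough UMIs, and 4 were at least 2-fold higher in tumour-like cells (Angptl4, Ddit4, Mxi1 and Ndrg1) and 4 in macrophages (Ankrd37, Gpi1, Hilpda and Pkm). Over the 3764 genes with enough UMIs in thinned cells, the shares were 29.97% in tumour-like cells and 15.17% in macrophages. Relative to the all-gene median, 13 were at least 2-fold higher in macrophages (19.9% of all genes) and 5 in tumour-like cells (23.2% of all genes). With clustering at resolution 0.5, 7 genes were at least 2-fold apart across tumour-like clusters, against 13 at resolution 1 and 17 at resolution 2. With at least 4 cycling UMIs, 7 genes were at least 1.5-fold higher in cycling cells, against 6. Shares over all genes were not computed for these other cluster and cycling settings. Over 34 genes and 12 settings, 376 of 408 ratios moved by less than their counting interval and 32 moved by more; none of the ratios of at least 2-fold changed side. Setting ratios relative to the all-gene median divides all 34 by the same factor. That alone took some outside their intervals, such as Gapdh, at 0.465 against an interval of 0.662 to 0.718. The cause of the moves under other settings was not tested. The planned bulk alternatives (DESeq2, no filter on low counts, each replicate left out and the replicate block) were not run. No paired analysis was possible because the bulk columns carry no sample names and the single-cell data are 1 library. Depth limits Slc2a3, Pfkm, Aldoc and Car9, with 2 to 7 macrophage UMIs each.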

Other observations

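Some of the 39 genes stood higher in clusters made mostly of cells in neither class. In a cluster of 446 cells, 30 of them tumour-like and 9 macrophages by the rule, whose leading genes were H2-Ab1, H2-Eb1 and Cd74, which serve antigen presentation, Bhlhe40, a transcriptional repressor of many immune cells, stood at 119 CPM (96.2 to 146), against 46.8 in tumour-like cells and 47.7 in macrophages. Pfkp, the platelet phosphofructokinase, stood at 51.3 CPM (36.6 to 69.8) in that cluster, against 8.90 and 9.44 CPM. Hilpda, at 80.7 CPM (62.0 to 103), was near its macrophage level of 97.1, while Pkm, at 200 CPM (170 to 234), was near its tumour-like level of 201. In a cluster of 139 cells whose leading genes were S100a9, S100a8 and Camp, known from neutrophils, Slc2a3 stood at 38.3 CPM (12.4 to 89.3) on 5 UMIs, against 4.70 and 1.05 CPM, and Ddit4 and Ndrg1 had 0 UMIs, with an upper interval limit of 28.2 CPM. Hk2 stood at 15.3 CPM there (1.85 to 55.3), against 188 CPM (159 to 221) in the H2-Ab1 cluster.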
